A study of Mus musculus with 2 samples.

Results

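The semaphorins, plexins and neuropilins were followed across the cell types of the mouse cerebral cortex at embryonic day 16.5. The group was taken by gene symbol and held 31 of the 32285 genes listed: 20 semaphorins (7 of class 3, 6 of class 4, 2 of class 5, 4 of class 6 and 1 of class 7), 9 plexins and 2 neuropilins. The data were droplet single-cell RNA counts from 2 libraries of papain-dissociated cerebral cortex from EomesDot control embryos, both labelled WT. The series title names an Eomes-Cre mouse line, while the study describes its single-cell data of this age as coming from C57BL/6J mice and lists more embryos for them than the libraries used here. Whether these embryos carried the Cre allele, and which embryos went into which library, is not given in the sources used here. There was no treated group, so the comparisons lay between cell classes within the same libraries, and their p-values measured only the spread between these 2 libraries.

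Semaphorins are guidance proteins that steer growing axons and migrating cells, mostly by repulsion. Class 3 members are secreted, classes 4 to 6 span the membrane, and class 7 is held to the membrane by a lipid anchor. Plexins are their signalling receptors. Most class 3 semaphorins bind a neuropilin first, and the neuropilin then works together with a class A plexin, whereas *Sema3e* can act through *Plxnd1* alone and class 6 proteins bind class A plexins directly. In the embryonic cortex the family is known for guiding radial migration, callosal and corticofugal axons, blood vessels and the route of cortical interneurons (cINs) around the striatum.

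The promoters of 26 of the 31 genes were listed in the RefSeq table for GRCm38.p6, the patch release of the mm10 build to which the reads had been mapped. *Sema3b*, *Sema3f*, *Sema6a*, *Plxna1* and *Plxna4* were not listed. The 250 bases before the transcription start that this table uses are shown for 7 genes that shifted at the step from intermediate progenitors to newborn neurons: *Nrp1*, *Nrp2*, *Plxna2* and *Sema3c*, which were higher in the newborn neurons, and *Sema5a*, *Sema5b* and *Sema3e*, which were higher in the progenitors. For *Nrp2*, *Sema3c*, *Sema5a* and *Sema3e* the window ends at the base before the listed span of the gene. That of *Nrp1* lies wholly inside the span, which begins at base 128358591 of chromosome 8, so it precedes a later start. The window of *Sema5b* lies mostly inside its gene, which begins at base 35541154, and that of *Plxna2* reaches into its gene, which begins at base 194619791. Each runs 5′ to 3′ along its gene, and the capitals mark CpG dinucleotides, the letters CG, which read the same on either strand.
Nrp1 (chr8:128358823-128359072, + strand): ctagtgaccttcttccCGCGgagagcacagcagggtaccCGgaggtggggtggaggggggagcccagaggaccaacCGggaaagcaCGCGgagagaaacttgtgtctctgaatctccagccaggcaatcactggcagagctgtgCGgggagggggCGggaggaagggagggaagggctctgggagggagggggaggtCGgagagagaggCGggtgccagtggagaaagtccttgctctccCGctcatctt
Nrp2 (chr1:62703067-62703316, + strand): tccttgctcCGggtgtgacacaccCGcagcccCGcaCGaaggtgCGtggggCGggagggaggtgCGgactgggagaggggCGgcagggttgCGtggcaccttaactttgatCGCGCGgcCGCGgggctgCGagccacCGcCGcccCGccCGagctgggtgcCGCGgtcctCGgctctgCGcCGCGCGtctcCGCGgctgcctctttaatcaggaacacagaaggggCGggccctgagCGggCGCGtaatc
Plxna2 (chr1:194619579-194619828, + strand): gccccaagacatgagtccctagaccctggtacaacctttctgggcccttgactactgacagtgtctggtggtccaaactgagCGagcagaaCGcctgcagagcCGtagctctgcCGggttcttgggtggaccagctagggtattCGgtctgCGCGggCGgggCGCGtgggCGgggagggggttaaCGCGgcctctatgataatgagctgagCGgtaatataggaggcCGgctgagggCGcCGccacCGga
Sema3c (chr5:17574566-17574815, + strand): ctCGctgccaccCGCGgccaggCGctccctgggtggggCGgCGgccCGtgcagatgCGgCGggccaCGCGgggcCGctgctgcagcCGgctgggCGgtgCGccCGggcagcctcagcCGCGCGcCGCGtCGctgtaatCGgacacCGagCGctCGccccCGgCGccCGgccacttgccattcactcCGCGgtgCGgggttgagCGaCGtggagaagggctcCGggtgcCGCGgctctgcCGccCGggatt
Sema5a (chr15:32244563-32244812, + strand): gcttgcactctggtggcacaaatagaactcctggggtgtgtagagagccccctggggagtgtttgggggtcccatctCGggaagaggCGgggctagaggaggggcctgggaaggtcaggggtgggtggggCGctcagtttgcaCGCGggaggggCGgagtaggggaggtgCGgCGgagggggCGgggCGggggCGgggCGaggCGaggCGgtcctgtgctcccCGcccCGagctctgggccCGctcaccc
Sema5b (chr16:35541112-35541361, + strand): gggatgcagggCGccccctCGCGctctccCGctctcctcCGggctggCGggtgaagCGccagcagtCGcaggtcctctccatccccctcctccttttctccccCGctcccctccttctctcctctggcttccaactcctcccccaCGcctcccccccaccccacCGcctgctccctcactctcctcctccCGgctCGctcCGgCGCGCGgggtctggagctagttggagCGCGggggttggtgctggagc
Sema3e (chr5:14025026-14025275, + strand): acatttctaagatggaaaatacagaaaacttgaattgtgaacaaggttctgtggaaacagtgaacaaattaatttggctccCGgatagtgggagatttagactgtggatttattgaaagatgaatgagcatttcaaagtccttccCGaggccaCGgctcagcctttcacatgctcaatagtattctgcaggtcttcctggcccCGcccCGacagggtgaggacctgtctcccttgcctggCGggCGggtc
The *Sema3c* window held 39 CpGs, a number that 1.57% of all 32851 promoter windows reached or passed, and the *Nrp2* window held 32, which 4.58% reached. *Plxna2*, *Sema5a* and *Sema5b* held 18, 17 and 19, *Nrp1* held 11, and *Sema3e* held 7, against a median of 6 over all windows. The genes that rose and those that fell at this step thus overlapped in CpG number. The bHLH recognition letters CANNTG, searched on both strands at once because they are their own reverse complement, stood 2 times in the *Sema3c* window, 1 time in that of *Sema3e*, and in none of the other 5, while 66.2% of all windows held them.

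After cells with 1500 to 60000 UMIs (counted RNA molecules) and under 10% mitochondrial UMIs were kept, 5966 cells of library 1 and 10247 of library 2 remained, with a median of 5706 and 4938 UMIs. Marker gates placed 3270 and 5156 of them in 15 classes, each called by its markers with the ending "-like": radial glial cells (RGCs), intermediate progenitor cells (IPCs), newborn, upper-layer and deep-layer excitatory neurons, cINs of the medial and caudal ganglionic eminence (MGE and CGE), striatal neurons, Cajal-Retzius cells, glial progenitors, endothelial, mural, meningeal fibroblast and microglia-like cells, and erythroid-like cells. In each class its own markers had their highest summed level, which the gates favour because they use the same markers. Taken singly, all markers were highest in their own class for Cajal-Retzius, endothelial, mural, meningeal fibroblast and microglia-like cells. Elsewhere fewer were, for example 4 of 8 for upper-layer, 7 of 10 for MGE, 6 of 9 for CGE and 9 of 14 for striatal cells. *Vip* was at 0 in the CGE class, and the microglia-like class was led by genes of border macrophages as well. The smaller classes held 24 to 78 cells a library. The libraries shared 40 cell barcodes, 21 of them among the kept cells. Markers of GABAergic neurons summed to between 6.93 and 190 CPM (UMIs per 1000000 UMIs of a class in a library) in the classes outside that lineage, the erythroid-like one left out. The 3 classes within it reached between 1711 and 3764 CPM. Erythroid-like cells had 178 and 196 CPM with globin UMIs in the total, so their level among non-globin UMIs was higher. In the other classes outside the lineage the gates themselves limit these genes. The part of such RNA in the results was not tested.

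Free RNA was gauged in the erythroid-like cells, which should lack these genes and had a median of 3125 and 3753 UMIs. They carried 0.317 and 0.693 UMIs of *Plxna4* per cell in libraries 1 and 2, 0.122 and 0.470 of *Plxna2*, 0.0976 and 0.316 of *Nrp1*, 0.0569 and 0.233 of *Sema6d* and 0.0163 and 0.256 of *Sema5a*, so library 2 was the higher for each of the 5 genes. The mean of both libraries was at most 0.0517 for any of the other 26 genes. The *Plxna4* counts of RGC-like (0.253 and 0.106 per cell) and mural-like cells (0.212 and 0.280) lay below this level in both libraries and were read as background, as were the *Plxna2* counts of mural-like cells (0.121 and 0.160). Other classes lay below it in library 2 and above it in library 1, so their counts cannot be told from background in library 2: for *Plxna4* the endothelial-like, meningeal fibroblast-like and microglia-like cells, for *Plxna2* the microglia-like and Cajal-Retzius-like cells, and for *Sema6d* the meningeal fibroblast-like cells. For *Nrp1* these were the RGC-like (0.187 and 0.0913), IPC-like (0.350 and 0.130), Cajal-Retzius-like and glial progenitor-like cells, and for *Sema5a* the MGE interneuron-like (0.278 and 0.244), Cajal-Retzius-like, endothelial-like and microglia-like cells. At the other end, upper-layer neuron-like cells held 10.2 UMIs of *Plxna4* per cell and newborn neuron-like cells 3.84 of *Nrp1*.

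Across the 14 classes other than the erythroid-like one, 19 of the 31 genes had their highest CPM in the same class in both libraries. *Plxna2*, *Nrp1* and *Sema3c* peaked in newborn neurons and *Plxna4* in upper-layer neurons. *Sema5a* peaked in IPCs, and *Sema5b* and *Plxnc1* in RGCs. *Plxna1* was highest in deep-layer neurons and *Sema6c* in MGE cINs. *Sema6a*, *Sema7a*, *Plxnd1* and *Sema3g* were highest in endothelial cells, *Sema6d*, *Plxnb3* and *Sema3b* in glial progenitors, *Sema4c* in mural cells, *Sema3a* in meningeal fibroblasts and *Sema3e* in Cajal-Retzius cells. Of these, *Sema3b* and *Plxnb3* rested on at most 3 UMIs per library in their highest class and *Sema3g* on 2 and 7. For the other 12 the highest class differed between the libraries.

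**Figure D1:**
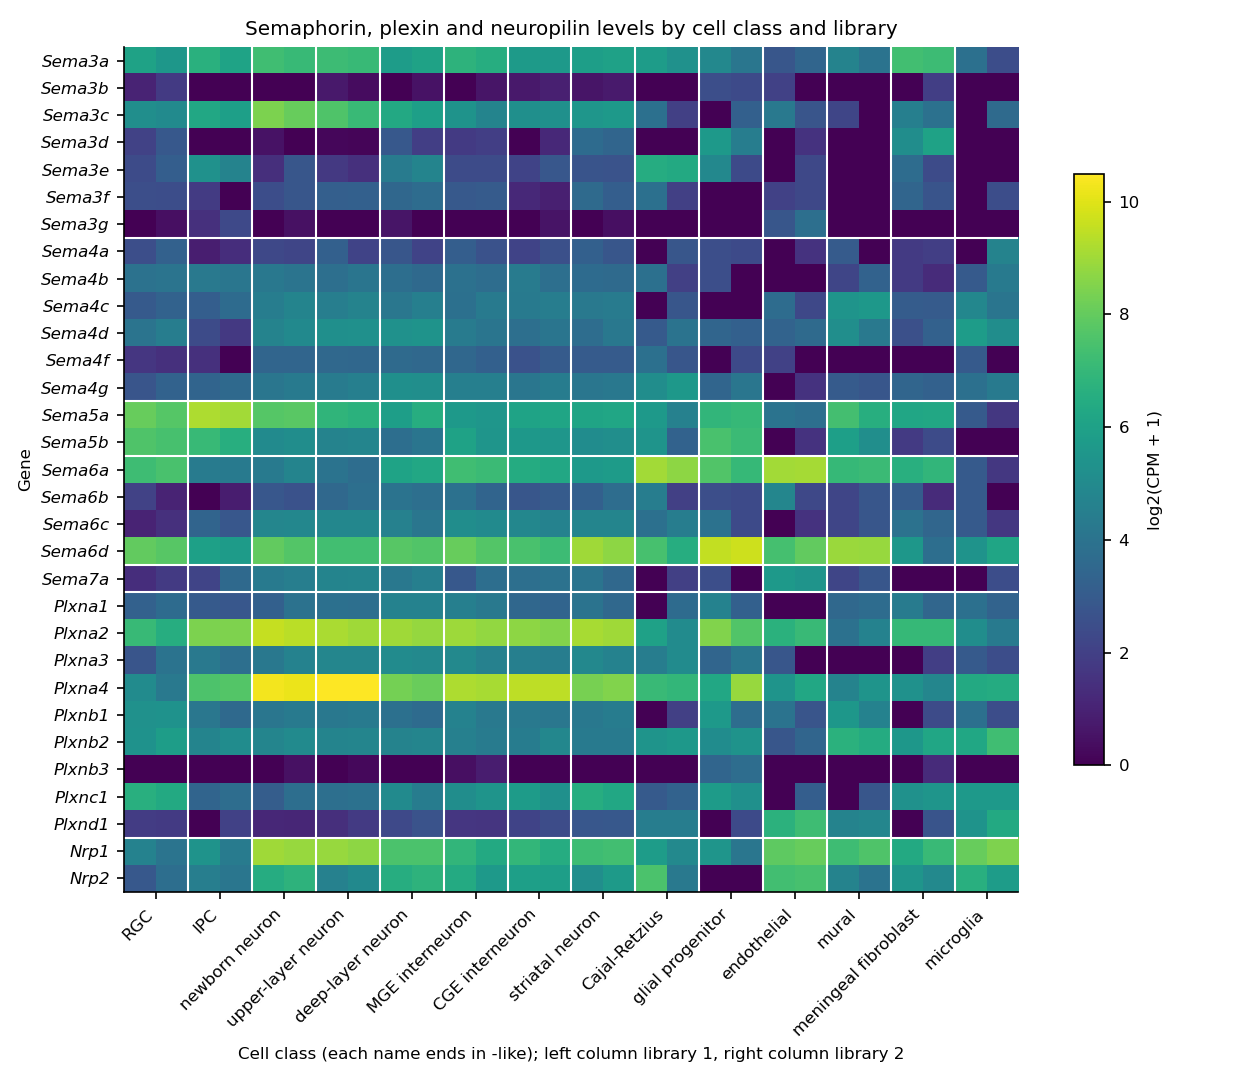
Level of each of the 31 genes (rows, grouped by family with white lines) in 14 marker-gated cell classes (columns, library 1 left and library 2 right of each pair), as log2(CPM + 1). The bright squares of *Plxna4* and *Plxna2* lie in the neuron classes, those of *Sema6a* in Cajal-Retzius-like and endothelial-like cells, and those of *Sema6d* in glial progenitor-like, striatal and mural-like cells; colours can be compared along a row and not between genes.

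Each comparison below was tested with edgeR's quasi-likelihood test on the class sums of both libraries, with library as a block, over 14991 genes, and a gene was called at an adjusted p (Benjamini-Hochberg, over all genes tested) under 0.05. *Sema3b*, *Sema3g* and *Plxnb3* did not pass the filter on low counts, so 28 members were tested; genes that pass through a high class alone are favoured by that filter. Comparisons that share a class share its counts. Log2 fold changes are given as the first class minus the second.

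Along the excitatory line, apical progenitors (RGCs) were first set against basal progenitors (IPCs). *Sema6a*, *Plxnc1*, *Sema4d* and *Sema6d* were several fold higher in RGC-like cells, and *Plxna4* and *Sema3e* were several fold higher in IPC-like cells. In all, 9 of the 28 tested members were higher in RGC-like cells, where 13.2% of all genes tested were, and 8 were lower, where 9.36% of all genes were. The median log2 fold change was 0.17 over the members and 0.07 over all genes tested. It turned to −0.47 over the 23 members with more than 3 UMIs on each side (0.02 over all such genes), so no common direction of the members is read from it.

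*Sema6a*, a transmembrane ligand that also acts as a receptor, stood at 151 and 177 CPM in RGC-like cells of libraries 1 and 2 and at 19.6 and 18.8 CPM in IPC-like cells. The classes did not overlap, and the log2 fold change was 3.07 (SE 0.22, edgeR adjusted p = 1.7e-13). *Plxnc1*, the receptor of *Sema7a*, fell from 97.0 and 82.7 CPM to 9.38 and 12.5 CPM (log2 fold change 2.97, SE 0.27, edgeR adjusted p = 5.3e-11). *Sema6d* measured 252 and 217 CPM in RGC-like cells against 60.6 and 53.2 CPM in IPC-like cells (2.0, SE 0.20, edgeR adjusted p = 2.9e-10). *Sema4d*, a ligand of *Plxnb1*, measured 15.4 and 20.9 CPM against 4.26 and 2.35 CPM, a log2 fold change of 2.44 (SE 0.42, edgeR adjusted p = 2.5e-05) that was 1.74 in library 1 and 2.94 in library 2. The receptor *Plxnb1* was itself higher in RGC-like cells, at 38.2 and 39.6 CPM against 17.1 and 11.0 CPM. All 5 genes were thus lower in the IPC-like cells of either library.

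In the other direction, *Plxna4*, a class A plexin, stood at 32.3 and 18.03 CPM in RGC-like cells, which is within the free-RNA background of either library, and at 186 and 206 CPM in IPC-like cells (log2 fold change −3.06, SE 0.28, edgeR adjusted p = 5.5e-11). *Sema3e* measured 4.24 and 7.78 CPM in RGC-like cells and 38.4 and 25.0 CPM in IPC-like cells (−2.36, SE 0.41, edgeR adjusted p = 2.9e-05); the log2 ratio was −3.11 in library 1 and −1.68 in library 2. *Plxna2* and *Sema5a* were also higher in IPC-like cells, *Sema5a* with 586 and 528 CPM, above its level in any other class. The neuropilins were low in both progenitor classes: *Nrp1* measured 23.9 and 15.6 CPM in RGC-like cells and 40.9 and 19.6 CPM in IPC-like cells, and the difference did not pass the test (edgeR adjusted p = 0.175). *Sema3d* was at 0 UMIs in IPC-like cells of both libraries, which allowed up to 2.56 and 2.35 CPM at 3 UMIs a library, and at 3.18 and 6.36 CPM in RGC-like cells.

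Both neuropilins were among the genes that changed at the step from IPC-like to newborn neuron-like cells. *Nrp1*, *Nrp2*, *Plxna4* and the secreted ligand *Sema3c* were all several fold higher in the newborn neurons, whereas *Sema3e*, *Sema5a* and *Sema5b* were higher in the progenitors. Of the 28 tested members 15 were higher in the newborn class (14.7% of all genes tested were) and 3 were higher in the IPC class (9.42% of all genes were). The median log2 fold change of IPC-like minus newborn neuron-like was −1.29 over the members and −0.12 over all genes tested, and −0.93 over the 23 members with more than 3 UMIs on each side. By family, 3 of 5 tested class 3 semaphorins, 4 of 6 in class 4, 3 of 4 in class 6, 2 of 8 plexins and both neuropilins were higher in newborn neurons.

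*Nrp1*, the co-receptor of *Sema3a*, measured 40.9 and 19.6 CPM in IPC-like cells and 509 and 472 CPM in newborn neuron-like cells (log2 fold change −4.20, SE 0.22, edgeR adjusted p = 4.0e-17). The IPC-like cells of library 2 lay below the free-RNA level of that library, so the size of this fold change rests in part on a background count. *Nrp2*, the co-receptor of *Sema3f*, went from 21.3 and 16.4 CPM to 89.3 and 108 CPM (−2.55, SE 0.35, edgeR adjusted p = 3.4e-07). *Plxna4* went from 186 and 206 CPM to 1282 and 1174 CPM (−2.81, SE 0.20, edgeR adjusted p = 9.5e-14). Every newborn value of these 3 receptor genes lay above every IPC value. *Sema3c* measured 78.5 and 59.5 CPM against 339.9 and 267 CPM (−2.30, SE 0.16, edgeR adjusted p = 1.1e-13). *Sema4d* measured 4.26 and 2.35 CPM against 25.1 and 30.2 CPM (−3.22, SE 0.38, edgeR adjusted p = 1.9e-08), with a log2 ratio of −2.43 in library 1 and −3.47 in library 2. *Sema4f*, *Sema6b* and *Sema3f* were called as well but rested on 2, 1 and 3 UMIs in IPC-like cells of both libraries together; their ratios of newborn neurons to IPCs were 11.8 (95% exact counting interval 3.10 to 101), 14.1 (2.33 to 577) and 4.37 (1.34 to 22.5).

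*Sema3e*, the class 3 ligand that can act without a neuropilin, moved the other way, from 38.4 and 25.0 CPM in IPC-like cells to 1.68 and 6.05 CPM in newborn neuron-like cells (log2 fold change 2.84, SE 0.44, edgeR adjusted p = 4.5e-06), with a log2 ratio of 4.36 in library 1 and 2.02 in library 2. The class 5 semaphorins are transmembrane proteins with thrombospondin repeats. *Sema5a* fell from 586 and 528 CPM to 212 and 221 CPM, and *Sema5b* from 134 and 94.7 CPM to 31.9 and 34.3 CPM.

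**Figure D2:**
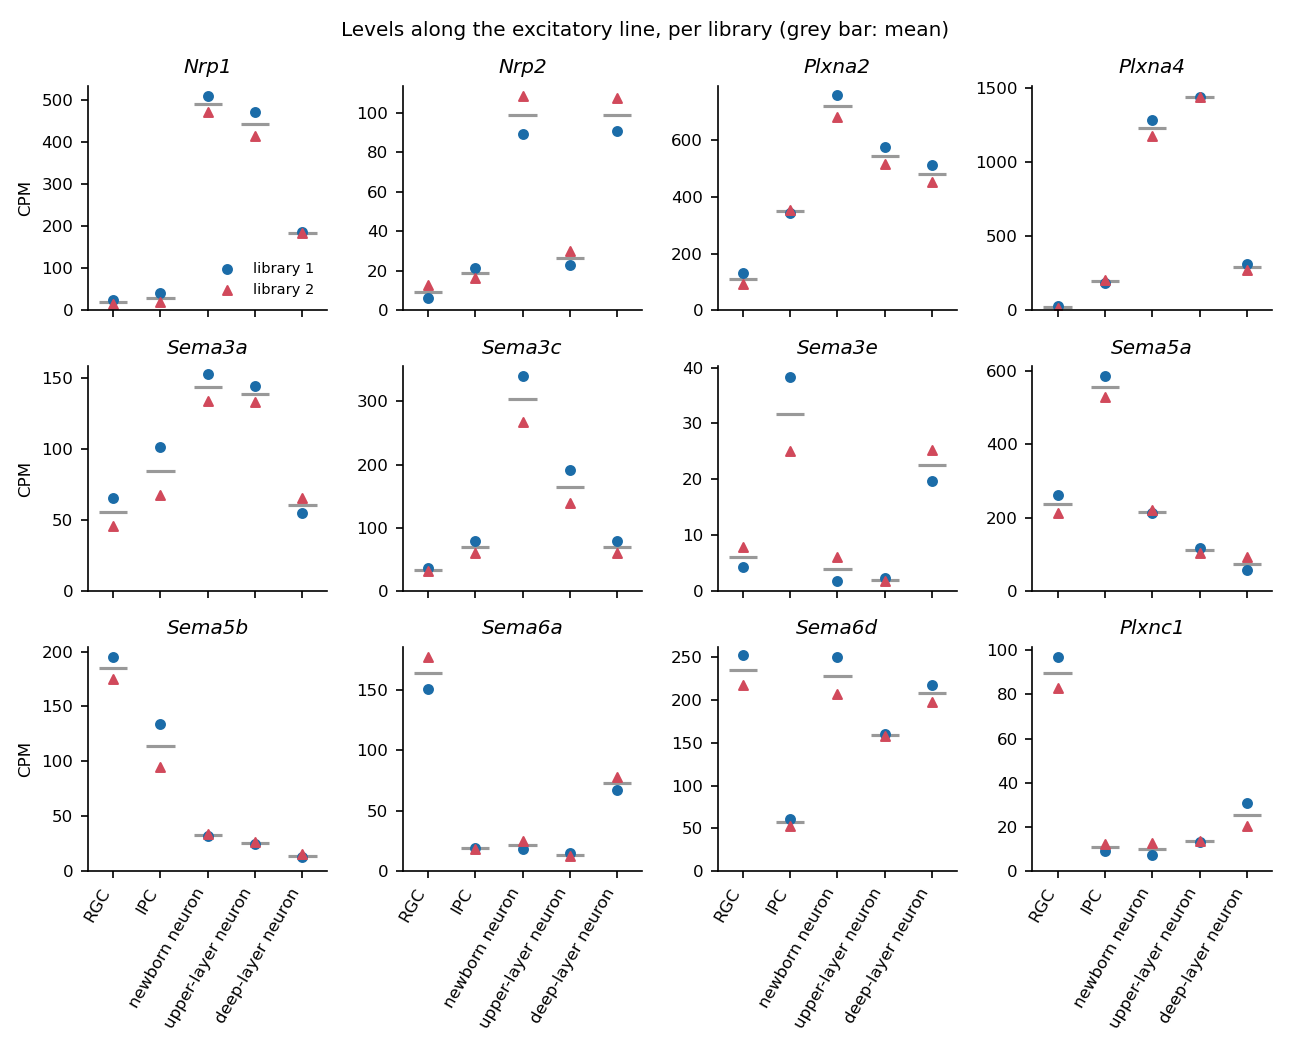
CPM (linear axes from 0) of 12 genes in the RGC, IPC, newborn, upper-layer and deep-layer classes, with blue circles for library 1, red triangles for library 2 and a grey bar for their mean. *Nrp1*, *Plxna4* and *Sema3c* are low in both progenitor classes and high in newborn neurons, *Sema5a* peaks in IPCs, *Sema6a* and *Plxnc1* are high in RGCs, and *Nrp2* and *Sema3e* are higher in the deep-layer than in the upper-layer class.

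Between newborn and upper-layer neuron-like cells the changes were fewer. Of 28 tested members, 4 were higher in newborn neurons (2.29% of all genes tested were) and 0 were lower (3.62% of all genes were); 3 were lower at an unadjusted edgeR p under 0.05, and 0 were lower with DESeq2. The median log2 fold change was −0.06 over the members and −0.06 over all genes tested. *Nrp2* stood at 89.3 and 108 CPM in newborn neuron-like cells and at 23.1 and 30.3 CPM in upper-layer neuron-like cells (log2 fold change 1.83, SE 0.22, edgeR adjusted p = 2.4e-07). *Sema5a* went from 212 and 221 CPM to 116 and 104 CPM (0.93, SE 0.15, edgeR adjusted p = 3.3e-05), and *Sema3c* from 339.9 and 267 CPM to 191 and 139 CPM (0.84, SE 0.12, edgeR adjusted p = 5.1e-06). *Sema6d* differed least, with 249.8 and 207 CPM against 159.7 and 157.7 CPM (0.47, SE 0.14, edgeR adjusted p = 0.034), and that call was lost with DESeq2 (adjusted p = 0.0544), without the library block (0.166) and with cells under 5% mitochondrial UMIs (0.11). In contrast to *Nrp2*, the level of *Nrp1* was 472 and 415 CPM in upper-layer neuron-like cells, and its difference from newborn neurons (0.10, SE 0.14) did not pass the test (edgeR adjusted p = 0.822). When the fit held only these 2 classes, 8 members were called, and calls over all genes rose as well, from 885 of 14991 to 1547 of 13318.

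Upper-layer and deep-layer neurons send their axons mainly across the callosum or out of the cortex, and they differed in both neuropilins in opposite directions. *Nrp1* was 2.40-fold higher in the upper-layer class and *Nrp2* 3.67-fold higher in the deep-layer class. Of 28 tested members 7 were higher in upper-layer neuron-like cells (6.17% of all genes tested were) and 7 were lower (8.97% of all genes were), with medians of −0.01 over the members and 0.03 over all genes tested.

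*Plxna4* measured 1436 and 1441 CPM in upper-layer neuron-like cells and 311 and 274 CPM in deep-layer neuron-like cells (log2 fold change 2.30, SE 0.18, edgeR adjusted p = 1.0e-12). *Nrp1* measured 472 and 415 CPM against 185 and 183 CPM (1.26, SE 0.15, edgeR adjusted p = 2.9e-08). *Sema3c* measured 191 and 139 CPM against 79.3 and 59.6 CPM (1.24, SE 0.15, edgeR adjusted p = 1.6e-08). *Sema3a*, the repellent ligand that *Nrp1* binds, was higher in the upper layers too, at 144 and 133 CPM against 54.7 and 65.4 CPM. *Sema3a* was thus higher in the same class as *Nrp1* and *Plxna4*. The class A plexin *Plxna1* went the other way, at 13.5 and 13.3 CPM in upper-layer against 24.1 and 24.0 CPM in deep-layer neuron-like cells (edgeR adjusted p = 0.0161). *Plxna3* did not pass the test (edgeR adjusted p = 0.678), nor did *Plxna2*, given below.

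The deep-layer class was higher in *Sema3e*, with 19.7 and 25.3 CPM against 2.34 and 1.71 CPM in the upper layers (log2 fold change −3.47, SE 0.37, edgeR adjusted p = 4.1e-09). *Sema6a* measured 67.0 and 78.3 CPM against 15.1 and 12.6 CPM (−2.40, SE 0.18, edgeR adjusted p = 1.8e-13). *Nrp2* measured 90.7 and 108 CPM against 23.1 and 30.3 CPM (−1.88, SE 0.22, edgeR adjusted p = 3.4e-08). None of these overlapped between the classes. *Sema3d* had 2 UMIs in the upper-layer class of both libraries together and 20 in the deep-layer class, a ratio of 42.3 (95% exact counting interval 10.3 to 373). *Plxna2*, in contrast, was at 574 and 516 CPM in upper-layer and 511 and 453 CPM in deep-layer neuron-like cells and did not pass the test (edgeR adjusted p = 0.427).

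The balance of the neuropilins was also read as the share of *Nrp2* in the UMIs of both genes, a quantity that can be compared between classes and not between the genes, since each gene is captured at its own rate. It was 4.67% (95% Wilson interval 4.05 to 5.39) and 6.81% (6.14 to 7.54) in upper-layer neuron-like cells of libraries 1 and 2. In newborn neuron-like cells it was 14.9% (13.2 to 16.9) and 18.7% (16.8 to 20.8), and in deep-layer neuron-like cells 32.9% (29.1 to 36.9) and 37.0% (33.5 to 40.6). The intervals of these 3 classes did not overlap in either library. MGE cINs lay at 41.0% and 37.7%, CGE cINs at 32.7% and 39.0%, and striatal neurons lower, at 19.2% and 24.5%. These intervals cover counting error only.

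Cortical interneurons of the MGE, the class that holds the somatostatin cells the study is about, were then set against the excitatory neurons through which they migrate (upper- and deep-layer cells averaged on the log2 scale). The CPM printed for the excitatory neurons, and later for both cIN classes together, are arithmetic means of the 2 classes, so their ratios differ somewhat from the fitted fold changes. *Sema6a* and *Sema5b* were higher in the MGE class, and *Sema3c*, *Nrp1*, *Sema7a* and *Sema4d* were higher in the excitatory neurons. In all, 4 of 28 tested members were higher in MGE interneuron-like cells (15.9% of all genes tested were) and 6 were lower (11.3% of all genes were), with medians of −0.22 over the members and 0.03 over all genes tested. With only these classes in the fit, 16 members were called, and calls over all genes rose as well, from 4072 of 14991 to 5010 of 13923.

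*Sema6a* stood at 155 and 142 CPM in MGE interneuron-like cells and at 41.0 and 45.4 CPM in the excitatory neurons (log2 fold change 2.16, SE 0.12, edgeR adjusted p = 8.0e-17). *Sema5b* stood at 64.6 and 43.9 CPM against 18.9 and 21.2 CPM (1.39, SE 0.17, edgeR adjusted p = 2.1e-08). Both were higher in either library, as was *Plxnc1*, with 34.6 and 42.4 CPM against 22.1 and 17.1 CPM. *Sema3c* measured 41.3 and 25.8 CPM against 135 and 99.1 CPM (−1.75, SE 0.15, edgeR adjusted p = 6.5e-12). *Nrp1* measured 119.7 and 80.8 CPM against 328 and 299 CPM (−1.59, SE 0.15, edgeR adjusted p = 3.4e-11). *Sema7a*, the lipid-anchored member, measured 6.35 and 12.9 CPM against 21.6 and 24.6 CPM (−1.28, SE 0.25, edgeR adjusted p = 1.5e-04), and *Sema4d* 19.4 and 16.1 CPM against 37.5 and 39.5 CPM (−1.20, SE 0.16, edgeR adjusted p = 1.2e-07).

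The ligand *Sema3a* was at 110 and 91.8 CPM in MGE interneuron-like cells, and its difference from the excitatory mean was 0.07 (SE 0.11, edgeR adjusted p = 0.695). *Plxna2*, at 496 and 445 CPM, and *Plxna4*, at 595 and 549 CPM, did not pass the test either (edgeR adjusted p = 0.229 and 0.244). For *Sema3a* and *Plxna4* the excitatory mean joins an upper-layer class that lay above the MGE values and a deep-layer class that lay below them.

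Within the cINs, MGE and CGE cells differed in 5 of 28 tested members, all higher in the MGE class. In that direction 3.76% of all genes tested were called, and in the other 2.9%, with 0 members, of which 1 was lower at an unadjusted edgeR p under 0.05 and 0 with DESeq2. The median was 0.27 over the members and 0.06 over all genes tested. *Sema3a* measured 110 and 91.8 CPM in MGE interneuron-like cells and 51.2 and 50.05 CPM in CGE interneuron-like cells (log2 fold change 1.01, SE 0.15, edgeR adjusted p = 1.0e-05). *Sema6a* measured 155 and 142 CPM against 88.0 and 77.8 CPM (0.88, SE 0.15, edgeR adjusted p = 7.9e-05). *Sema6d* measured 267 and 208 CPM against 179 and 145 CPM (0.58, SE 0.15, edgeR adjusted p = 0.012). *Plxna1* measured 21.9 and 17.9 CPM against 10.5 and 9.38 CPM (1.02, SE 0.32, edgeR adjusted p = 0.0416). The MGE values of these 4 genes lay above the CGE values in both libraries.

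The fifth, *Sema3f*, was at 6.71 and 7.104 CPM in the MGE class and 1.31 and 0.894 CPM in the CGE class, where 2 UMIs in each library lay under the limit of 3 UMIs (1.97 and 1.34 CPM). With cells under 5% mitochondrial UMIs only 2 members were called, and calls over all genes fell from 999 of 14991 to 496 of 13214. Under that setting the calls of *Sema3a* (edgeR adjusted p = 0.24) and *Sema6d* (0.142) were lost. *Sema6d* was also lost without the library block (0.0732), and *Plxna1* under 6 alternatives, with adjusted p between 0.0572 and 0.517. The neuropilins showed no call: *Nrp1* differed by −0.06 (SE 0.19) and *Nrp2* by 0.18 (SE 0.25).

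The striatal neurons lie beside the route of the cINs, and the comparison of both cIN classes with them asked which guidance genes separate the 2 territories. *Sema6d*, *Sema3d*, *Plxnc1* and *Nrp1* were higher in striatal neuron-like cells and *Sema6a* and *Plxna4* were higher in the cINs. Of 28 tested members 2 were higher in the cINs (5.06% of all genes tested were) and 5 were lower (5.66% of all genes were), with medians of −0.11 and 0.00 (members and all genes tested). After the removal of Scrublet doublets the count was 11, and calls over all genes rose from 1607 of 14991 to 1918 of 14691.

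*Sema6d* stood at 507 and 414 CPM in striatal neuron-like cells against 223 and 176 CPM in the cINs (log2 fold change −1.25, SE 0.12, edgeR adjusted p = 2.0e-10). *Plxnc1* stood at 91.8 and 77.3 CPM against 43.9 and 39.7 CPM (−1.04, SE 0.15, edgeR adjusted p = 1.4e-06). *Sema3d* had 23 and 27 UMIs in striatal neuron-like cells (11.8 and 9.66 CPM). The MGE class held 7 and 11 UMIs of it (2.47 and 2.89 CPM), and the CGE class 0 and 3. *Sema3d* was called (edgeR adjusted p = 3.4e-04), but the size of its fold change rests in part on the low CGE counts. *Nrp1* measured 151 and 158 CPM against 121 and 85.5 CPM (−0.63, SE 0.15, edgeR adjusted p = 0.0033); it was lost with DESeq2 (adjusted p = 0.093) and with 1 more marker required (edgeR adjusted p = 0.0802). Of these genes, *Nrp1* in library 1 showed the smallest gap.

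*Sema6a* measured 122 and 109.7 CPM in the cINs against 49.8 and 53.0 CPM in striatal neuron-like cells (log2 fold change 1.08, SE 0.15, edgeR adjusted p = 8.9e-07). *Plxna4* measured 645 and 627 CPM against 321 and 364 CPM (0.86, SE 0.16, edgeR adjusted p = 1.3e-04) and was lost with DESeq2 (adjusted p = 0.125). *Sema3f*, the striatal ligand known to repel neuropilin-bearing cINs, was low throughout, at 11.3 and 7.87 CPM in striatal neuron-like cells against 4.01 and 3.999 CPM in the cINs, and was among the 5 called. The cIN value averages the MGE class, at 6.71 and 7.104 CPM, with the CGE class, whose 1.31 and 0.894 CPM lay under the limit of 3 UMIs, and in library 2 the MGE class was close to the striatal level.

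**Figure D3:**
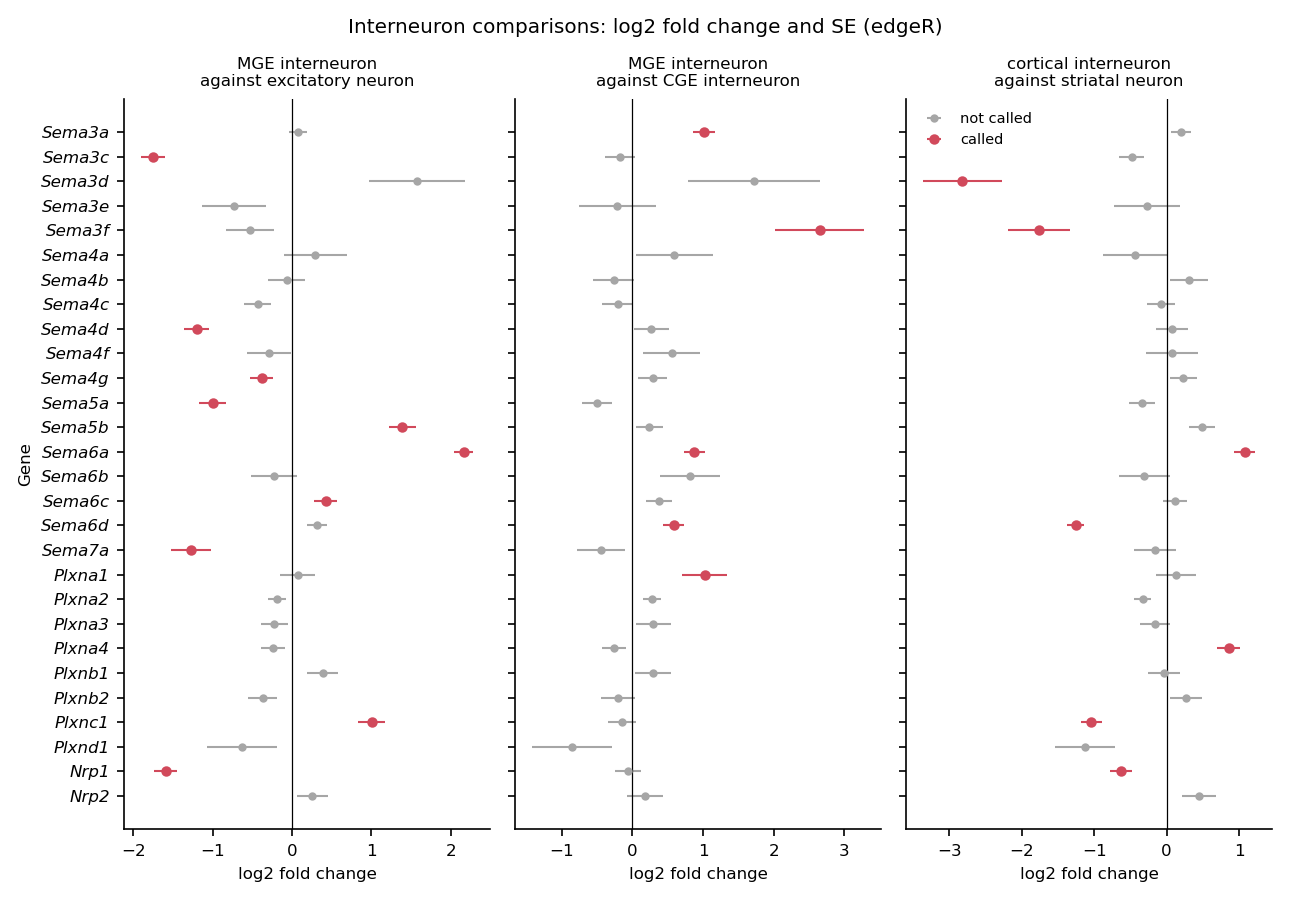
Log2 fold change (first class minus second, horizontal axis) with its SE for the 28 tested members in the 3 interneuron comparisons; red points passed edgeR's test at an adjusted p under 0.05 and grey points did not. *Sema6a* lies to the right in all 3 panels, and *Sema3c* and *Nrp1* lie far to the left in the comparison with excitatory neurons.

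In the vessel wall, endothelial cells line the lumen and mural cells wrap them. Endothelial-like cells were higher in *Nrp2*, *Sema7a*, *Plxna2*, *Plxnd1* and *Sema6a*, and mural-like cells were higher in both class 5 semaphorins, *Plxnb2*, *Plxna1*, *Sema4c* and *Sema6d*. The counts were 5 of 28 tested members higher in endothelial-like cells (6.46% of all genes tested were) and 6 lower (5.86% of all genes were), with medians of 0.61 over the members and 0.01 over all genes tested. The first median shows no shift of the members toward endothelial-like cells, since 15 of the 28 held 3 UMIs or fewer over both libraries on one side. Over the other 13 it was −1.05, with 6 above 0 and 7 below (0.00 over all genes with more than 3 UMIs on each side). These classes held 36 and 78 endothelial-like and 33 and 50 mural-like cells.

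*Nrp2* stood at 160.4 and 175 CPM in endothelial-like cells and at 24.6 and 14.9 CPM in mural-like cells (log2 fold change 3.19, SE 0.57, edgeR adjusted p = 7.4e-05). *Plxnd1*, the vascular receptor of *Sema3e*, stood at 106 and 149.6 CPM against 24.6 and 26.9 CPM, and *Sema6a* at 529.8 and 535 CPM against 129.9 and 140.2 CPM. *Sema7a* had 16 and 22 UMIs in endothelial-like cells and 1 and 2 in mural-like cells, a ratio of 9.22 (95% exact counting interval 2.93 to 46.7), with an edgeR adjusted p = 9.1e-04. *Nrp1*, a co-receptor for vascular growth factor as well as for semaphorins, was at 236 and 269 CPM in endothelial-like and 151 and 194 CPM in mural-like cells and did not pass the test (edgeR adjusted p = 0.15).

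On the mural side, *Plxnb2* measured 102 and 86.5 CPM against 6.05 and 9.59 CPM in endothelial-like cells (log2 fold change −3.45, SE 0.51, edgeR adjusted p = 2.6e-06), and *Sema5a* 162 and 95.5 CPM against 15.1 and 13.4 CPM (−3.09, SE 0.52, edgeR adjusted p = 2.3e-05). *Sema5b* had 17 and 12 UMIs in mural-like cells and 0 and 1 in endothelial-like cells, a ratio of 39.8 (95% exact counting interval 6.61 to 1627), with an edgeR adjusted p = 1.1e-04. *Plxna1* had 3 and 4 UMIs in mural-like cells and 0 in endothelial-like cells (edgeR adjusted p = 0.0203); 3 UMIs would be 9.08 and 5.76 CPM in endothelial-like cells, so the mural values of 10.5 and 11.9 CPM exceed what these zeros allow by little in library 1.

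The remaining classes entered no test and are described by their levels. *Sema3e*, the ligand of *Plxnd1*, stood at 90.1 and 83.0 CPM in Cajal-Retzius-like cells, from 13 and 28 UMIs, and *Sema6a* at 520 and 418 CPM there. *Nrp2* in that class differed widely between the libraries, at 180.2 CPM in library 1 (26 UMIs in 24 cells) and 17.8 CPM in library 2 (6 UMIs in 39 cells), and no level is drawn from it. Glial progenitor-like cells held *Sema6d* at 739.8 and 833 CPM and *Sema5b* at 178 and 140 CPM. *Plxnb3*, known as an oligodendrocyte-lineage plexin, had 2 and 3 UMIs in those cells and at most 3 in any other class and library. *Plxna4* was at 76.9 CPM in library 1 and 474 CPM in library 2 in glial progenitor-like cells, again with no common level.

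Meningeal fibroblast-like cells held the secreted ligands *Sema3a*, at 158 and 146 CPM, and *Sema3d*, at 33.9 and 65.2 CPM. Microglia-like cells held *Nrp1* at 262 and 353 CPM, *Plxnb2* at 75.9 and 153 CPM, and *Plxnd1* at 41.4 and 82.0 CPM, while *Sema5b* and *Sema3e* were at 0 UMIs in both libraries, which allowed up to 20.7 and 6.83 CPM. Among the class 4 semaphorins, *Sema4a*, *Sema4b* and *Sema4f* reached at most 25.0 CPM in any class, and the highest values of *Sema4c* (47.7 CPM), *Sema4g* (47.4 CPM) and *Sema4d* (55.2 CPM) lay in mural-like, Cajal-Retzius-like and microglia-like cells. *Plxna3*, a plexin that pairs with *Nrp2*, ranged from 0 to 32.6 CPM.

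**Figure D4:**
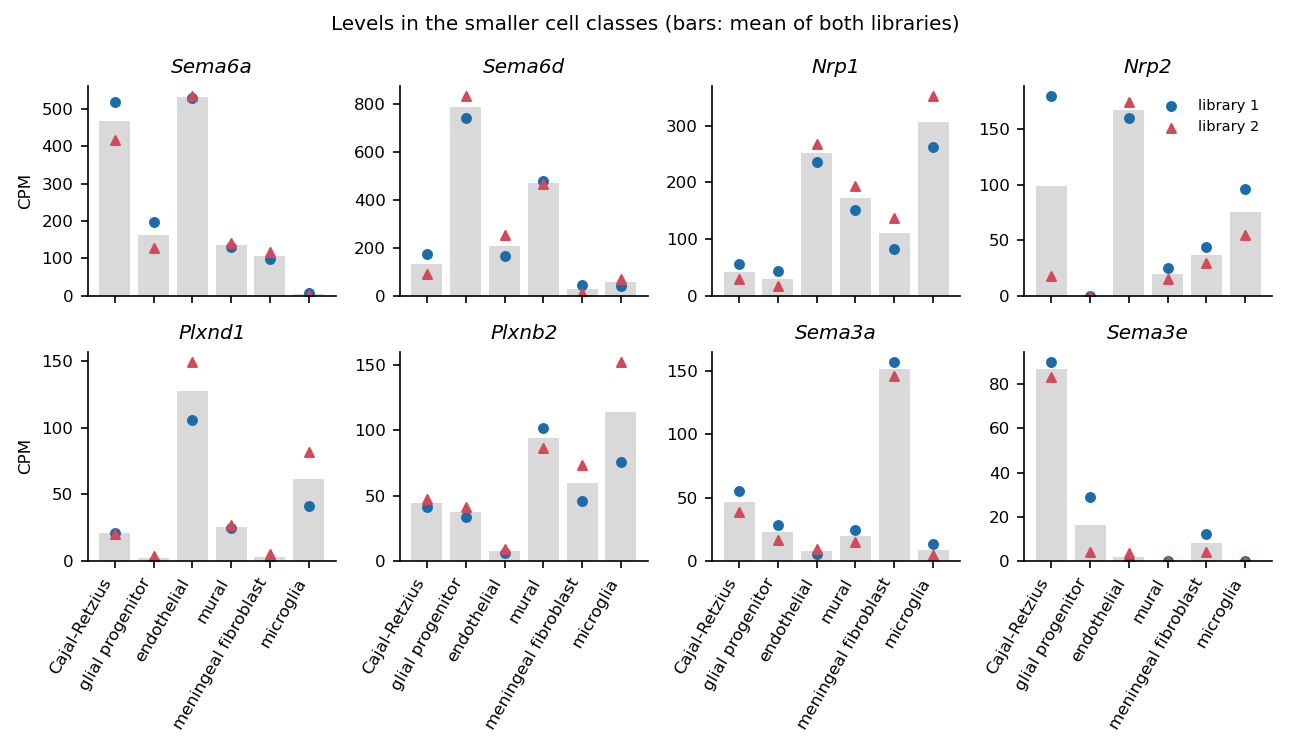
CPM (linear axes from 0) of 8 genes in the 6 smaller classes, as grey bars for the mean of both libraries with a blue circle for library 1 and a red triangle for library 2. *Sema6a* is high in Cajal-Retzius-like and endothelial-like cells, *Plxnd1* in endothelial-like cells and *Sema3a* in meningeal fibroblast-like cells, and the 2 libraries lie far apart for *Nrp2* in Cajal-Retzius-like cells.

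A list of 46 genes that work with these receptors was counted beside the members: 12 partners at the membrane, 5 collapsin response mediator proteins, 24 GTPase and cytoskeleton effectors and 5 kinases. Of the 45 that passed the filter, 8 were higher and 9 lower in RGC-like than in IPC-like cells, against 13.2% and 9.36% of all genes tested. *Rnd2* and *Cntn2*, which served as newborn neuron markers, were left out of the comparisons of that class. In IPC-like against newborn neuron-like cells 4 of 43 were higher and 18 lower (9.3% and 41.9%, against 9.42% and 14.7% of all genes tested), among the latter 4 of the 5 collapsin response mediator proteins, which carry the *Sema3a* signal to microtubules. *Dpysl3* measured 146 CPM in IPC-like and 549 CPM in newborn neuron-like cells (means of both libraries; log2 fold change −2.07, SE 0.14, edgeR adjusted p = 1.8e-14), and the adhesion partner *Chl1* 68.3 and 608 CPM (−3.31, SE 0.17, edgeR adjusted p = 7.4e-18). *Dpysl4* went the other way, at 19.2 and 8.43 CPM.

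In newborn against upper-layer neurons 2 of the 43 partner genes were higher and 10 lower (4.65% and 23.3%, against 2.29% and 3.62% of all genes tested). These 12 calls fell to between 2 and 7 under 5 of the 9 alternatives, where calls over all genes were between 309 and 875 in place of 885. Upper-layer against deep-layer neurons gave 4 of 45 higher and 8 lower (8.89% and 17.8%, against 6.17% and 8.97% of all genes tested; 6 calls in place of 12 with cells under 5% mitochondrial UMIs), with *Nrcam*, a partner of *Nrp2*, at 135 and 415 CPM (log2 fold change −1.62, SE 0.14, edgeR adjusted p = 1.1e-11). MGE cINs against excitatory neurons gave 8 higher and 11 lower (17.8% and 24.4%, against 15.9% and 11.3% of all genes tested), with *Rnd3*, a GTPase that binds plexins, at 137 and 39.9 CPM, and *L1cam*, a partner of *Nrp1*, at 35.8 and 90.0 CPM (−1.38, SE 0.12, edgeR adjusted p = 3.8e-12). MGE against CGE cINs gave 5 higher and 3 lower (11.1% and 6.67%, against 3.76% and 2.9% of all genes tested), and cINs against striatal neurons also 5 higher and 3 lower (against 5.06% and 5.66%). With cells under 5% mitochondrial UMIs these 8 and 8 calls were 4 and 5. Under that setting calls over all genes fell too, from 2270 to 1325 for upper-layer against deep-layer neurons. They fell from 999 to 496 for MGE against CGE cINs and from 1607 to 1075 for cINs against striatal neurons. Endothelial-like against mural-like cells gave 3 higher and 4 lower (6.67% and 8.89%, close to the 6.46% and 5.86% of all genes tested), with the vascular growth factor receptor *Kdr* at 577 and 6.50 CPM.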

How the data were processed

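Raw UMI counts per gene and cell barcode, as the authors deposited them, came from Cell Ranger, given as version 7.0.0 in the submitters' processing notes and 7.1.0 in the file headers, with mm10; the annotation is not given in the sources used here. The libraries held 9049 and 13556 barcodes and 46398156 and 64324236 UMIs. Cells with 1500 to 60000 UMIs and under 10% mitochondrial UMIs were kept, without doublet removal in the main analysis. A class required an anchor gene and 3 to 5 detected markers. Interneuron and striatal classes needed at least 3 GABAergic markers. Fewer than 3 were allowed in glial progenitor, endothelial, mural, meningeal fibroblast and microglia-like cells, and at most 1 in the remaining gated classes. Erythroid-like cells had at least 10% globin UMIs and no limit on GABAergic markers, and their levels of the members are scaled to their non-globin UMIs. Cells passing several gates (325 and 460) or none were left out, and classes needed 20 cells in each library.

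UMIs were summed per class and library and tested with edgeR 4.0.16 (R 4.3.3; TMM, quasi-likelihood, at least 10 counts in 2 sums, all 15 classes in 1 fit). Library was a block because each library gave every class; over 3761 genes the library differences of 8 large classes correlated at 0.18 to 0.62. The script was tested on simulated counts for MGE against CGE interneurons only. DESeq2 1.42.0 and 8 other settings served as alternatives. The members, set by symbol, and the lists were chosen with earlier results of these data known, and gate thresholds were set after marker values were seen. Fold changes with SE are printed for the called members that reached 10 CPM on the higher side and moved alike in either library, to a maximum of 6 per comparison; where a class held 3 UMIs or fewer over both libraries, UMIs, or a ratio with its counting interval, are printed in their place. Intervals cover counting error only.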

Additional observations from a re-analysis of the deposited data

How the results depend on the processing

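The 44 log2 fold changes of members taken by the naming rule, including those given in the report as UMIs or a counting ratio, kept their direction in all 388 values that 9 alternative settings gave. Of the 388, 373 stayed past the threshold and 15 did not, among *Sema6d*, *Plxna1*, *Sema3a*, *Nrp1* and *Plxna4* in the comparisons named in the report. Of the 88 values from 1 library alone, 19 moved by more than the SD between the libraries. The direction of these 88 was fixed beforehand, since the naming rule took only members that moved alike in either library. Of 71 counts of called members under an alternative, 4 moved by over 1.5 times. With the fit limited to the compared classes, newborn against upper-layer neurons gave 8 in place of 4 (all genes 1547 in place of 885). In the same way MGE interneurons against excitatory neurons gave 16 in place of 10 (all genes 5010 in place of 4072). With cells under 5% mitochondrial UMIs, MGE against CGE interneurons gave 2 in place of 5 (all genes 496 in place of 999). With Scrublet doublets removed, interneurons against striatal neurons gave 11 in place of 7 (all genes 1918 in place of 1607). Among the partner genes, newborn against upper-layer neurons gave 12 calls and between 2 and 7 with DESeq2, RLE size factors, no block, 1 more marker or under 5% mitochondrial UMIs; the last setting also gave 6 in place of 12 for upper-layer against deep-layer, 4 in place of 8 for MGE against CGE and 5 in place of 8 for the striatal comparison. For these comparisons of the partner genes, calls over all genes were lower under the same settings too. The cause was not tested. A median without genes at 3 UMIs or fewer on a side, chosen after seeing the data, changed sign for radial glia against intermediate progenitors (0.17 to −0.47), upper-layer against deep-layer neurons (−0.01 to 0.04) and endothelial against mural cells (0.61 to −1.05). Without the library block the counts of called members were 16, 18, 3, 12, 9, 4, 7 and 11, in the order of the report, against 17, 18, 4, 14, 10, 5, 7 and 11 with it. The endothelial against mural comparison could not be fitted under 5% mitochondrial UMIs, which left too few cells. With 2 libraries and 24 to 78 cells a library in the smaller classes, levels under about 3 UMIs could not be told from 0, cells that failed every gate are not described, and 3' counts do not separate isoforms.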
